A study of Homo sapiens with 15 samples.

Results

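A set of 8 transcription factor genes that set up the dorsal to ventral and nasal to temporal axes of the vertebrate retina were followed through retinal organoid culture and glial cell expansion. They are the dorsal T-box genes TBX2, TBX3 and TBX5, the ventral homeobox genes VAX1 and VAX2, the temporal forkhead gene FOXD1, and the nuclear receptor genes NR2F1 and NR2F2. The genes were chosen by name and matched by symbol, and all 8 were found among the 19684 genes of the deposited tables. RNA was sequenced from 15 libraries, 3 in each of 5 groups, all from BC1-GFP, a line of induced pluripotent stem cells of human origin with a GFP reporter and a genotype given as wild type. The groups were undifferentiated cells (hiPSC), neural retina dissected from retinal organoids at day 70 (D70-RO) and at day 150 (D150-RO) after induction, and glial cells grown out of day 150 neural retina and collected on day 5 of passage 1 (P1 iMGC) or of passage 5 (P5 iMGC). No test agent separated the groups, but the culture media differed. By the paper's methods, the supplement of the organoid medium was changed between day 70 and day 150. The organoid medium held fetal bovine serum and taurine, and the iMGCs grew on Matrigel in medium with fetal bovine serum. Each organoid library pooled the neural retina of about 5 organoids, so neither kind of library kept the position of a cell within a retina.

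In the developing eye, BMP signals from the dorsal side maintain TBX2, TBX3 and TBX5, while Sonic hedgehog from the ventral midline maintains VAX1 in the optic stalk and VAX2 in the ventral retina. The 2 sets oppose each other, and through ephrins and Eph receptors they give retinal ganglion cell axons their address along the dorsal to ventral axis. FOXD1 marks the temporal side of the retina and also the stroma of several organs, and NR2F1 and NR2F2, also called COUP-TFI and COUP-TFII, are graded ventrally and dorsally in the mouse optic cup and are used in many mesenchymal and vascular tissues as well.

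Levels are given as FPKM, read fragments scaled by the authors for transcript length and library depth, and changes are log2 fold changes from edgeR's quasi-likelihood test on the expected counts with TMM scaling. A gene entered a test if it reached 1 FPKM in at least 3 of the 6 libraries compared, and it was called at a Benjamini-Hochberg adjusted p under 0.05 over all genes tested together with a change of at least 2-fold. Library totals lay between 11349600 and 20398755 expected counts, with D70-RO replicate 2 the lowest. The labelled cell types were checked against marker lists. The D70-RO and D150-RO libraries held all 6 neural retina progenitor markers at 1 FPKM or more, and their summed level fell from 937 to 1084 FPKM at day 70 to between 420 and 470 FPKM at day 150. Of 6 Müller glia markers, 5 were tested between P1 iMGCs and D150-ROs. Of these, 4 were called lower (RLBP1, GLUL, SLC1A3, SOX9) and 1 higher (VIM), beside 24.1% and 20% of all genes tested. RLBP1 and SLC1A3 passed the filter only through D150-ROs, so their direction was largely fixed by entry. RLBP1 averaged 33.5 ± 3.66 FPKM (SD, n = 3) in D150-ROs and had no count in P1 iMGCs, whereas VIM averaged 1065 ± 76.0 and 2160 ± 20 FPKM. AQP4 had no count in iMGCs and was already at 0.19 FPKM in D150-ROs. With VIM making up most of it, the sum over the list was 1182 to 1346 FPKM in D150-ROs and 2160 to 2199 FPKM in P1 iMGCs. Of the progenitor markers, 3 of 6 reached 1 FPKM in all iMGC libraries, with PAX6 at 30.7 and 43.9 FPKM in P1 and P5, while RAX had no count there. The 11 mesenchymal and periocular markers summed to between 2244 and 2836 FPKM there and to between 22.3 and 26.3 FPKM in D150-ROs. In bulk libraries like these, fewer cells of a type and less RNA per cell cannot be told apart.

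The members come as related pairs whose transcripts a short read could confuse, so the closest coding stretch of NR2F1 and NR2F2 is printed here to show how far that pair can be separated. Each line holds 180 bases of the coding sequence from GENCODE 29, written 5′ to 3′, with capitals at the bases that differ between the pair. NR2F1 and NR2F2 differ at 15 of 180 bases in this stretch, which belongs to the ligand-binding domain, and their longest identical run is 28 bases.
NR2F1: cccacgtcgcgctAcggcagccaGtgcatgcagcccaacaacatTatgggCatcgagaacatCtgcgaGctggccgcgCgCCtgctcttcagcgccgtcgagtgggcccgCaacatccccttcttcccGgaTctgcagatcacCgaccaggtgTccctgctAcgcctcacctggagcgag
NR2F2: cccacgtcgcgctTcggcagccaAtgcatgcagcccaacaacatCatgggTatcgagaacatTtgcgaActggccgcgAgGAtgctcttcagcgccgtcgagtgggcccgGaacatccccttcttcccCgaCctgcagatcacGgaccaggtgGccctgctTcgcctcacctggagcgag
TBX2 and TBX3 were further apart, 80.6% identical over the closest 180 bases of the T-box. No 50-base word was shared between any of the 8 members, so reads of that length or longer that match exactly would tell them apart. Outside the group, 4 members share words with other genes. Of the 50-base words of VAX2, 55.2% also occur in transcripts of ATP6V1B1 and AC007040.2, which overlap it on chromosome 2, and FOXD1 shared 14.8% of its words with FOXD1-AS1, FOXD2 and FOXL1. TBX5 and NR2F1 shared 4.66% and 2.51% with their antisense genes.

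In undifferentiated cells, the 8 members were near the lower end of detection, and their summed level was 1.30 to 1.46 FPKM. Day 70 neural retina had TBX2 and NR2F1 above 65 FPKM, with means of 16.8 and 21.2 FPKM for VAX2 and NR2F2 and of 1.59 to 2.09 FPKM for the other 4. The iMGCs had a different order, with NR2F2 and FOXD1 highest and TBX5 without a count. The plot of levels by library shows these patterns for every gene.

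**Figure D1:**
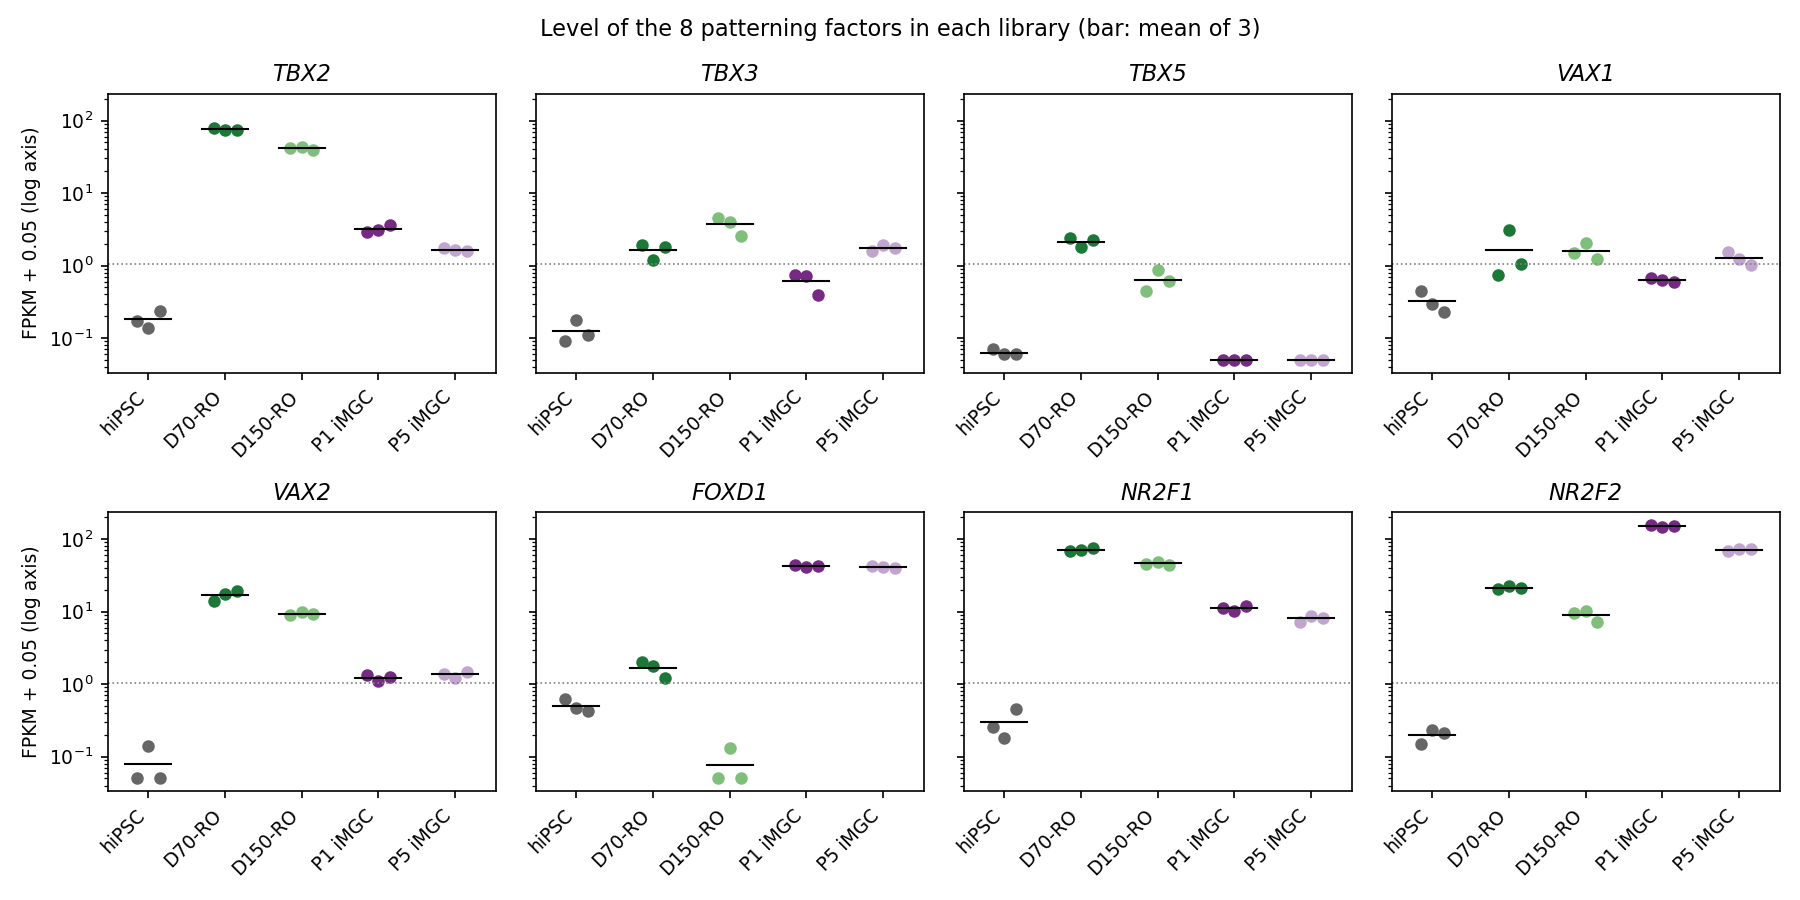
Level of each of the 8 factors in the 15 libraries, as FPKM + 0.05 on a log axis, with 1 point per library, a bar at the mean of 3 libraries and a dotted line at 1 FPKM. TBX2, VAX2 and NR2F1 were highest in D70-ROs, FOXD1 and NR2F2 were highest in iMGCs, and TBX5 was listed at 0 in all 6 iMGC libraries.

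TBX2 (ENSG00000121068) lies on chromosome 17 at 61399896 to 61409466 of GRCh38, and its product is a repressor that helps to specify dorsal retina. It was the most abundant member at day 70. The 3 hiPSC libraries held 0.12, 0.09 and 0.19 FPKM, and the D70-RO libraries 78.3, 73.2 and 75.2 FPKM. D150-ROs had 42.3, 43.8 and 38.9 FPKM. The P1 iMGCs then had 2.89, 3.06 and 3.62 FPKM and the P5 iMGCs 1.71, 1.57 and 1.56 FPKM. No neighbouring groups in the order D70-RO, D150-RO, P1 iMGC, P5 iMGC and hiPSC overlapped. TBX2 rose by 8.96 ± 0.19 (log2, SE) from hiPSCs to D70-ROs, with an edgeR adjusted p of 1.44e-10, and was still 7.88 ± 0.17 above hiPSCs in D150-ROs, adjusted p 3.02e-12. Between the organoid stages it fell by 1.08 ± 0.08 (edgeR adjusted p 5.21e-06). This was close to the 2-fold limit, and the call was lost with limma on log2(FPKM + 1) at -0.84 and in a test against a 2-fold change. It fell by 3.06 ± 0.08 from D150-ROs to P1 iMGCs and by 3.99 ± 0.08 to P5 iMGCs, with edgeR adjusted p of 9.76e-15 and 1.42e-16. The further difference between P5 and P1, -0.92 ± 0.13, had an edgeR adjusted p of 7.01e-06 but stayed under 2-fold.

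TBX3 (ENSG00000135111, chromosome 12, 114670254 to 114684164), a close relative of TBX2 with overlapping targets, was far lower and ran on a different course. In hiPSCs it read 0.04, 0.13 and 0.06 FPKM, and in D70-ROs 1.88, 1.13 and 1.76 FPKM. D150-ROs had 4.55, 3.89 and 2.52 FPKM, which made them the highest group. P1 iMGCs had 0.69, 0.66 and 0.34 FPKM, and P5 iMGCs 1.54, 1.90 and 1.71 FPKM. The D150-RO libraries lay above those of every other group, while the P5 iMGC and D70-RO libraries overlapped. TBX3 rose by 4.34 ± 0.40 from hiPSCs to D70-ROs and by 5.35 ± 0.37 to D150-ROs, with edgeR adjusted p of 2.09e-06 and 3.38e-08. The difference between D150-ROs and D70-ROs was 1.00 ± 0.26 (edgeR adjusted p 0.00680), a hair under 2-fold and so not called, and it was called with DESeq2 at 1.02 and, by edgeR, without D150-RO replicate 3 at 1.22, without D70-RO replicate 1 at 1.12 and without D70-RO replicate 3 at 1.06. It fell by 2.11 ± 0.25 into P1 iMGCs (edgeR adjusted p 8.94e-07). TBX3 was the 1 member called between the passages, rising by 1.70 ± 0.20 from P1 to P5 with an edgeR adjusted p of 2.04e-07. With limma on log2(FPKM + 1) that rise was 0.80 and not called. TBX3 passed the filter between the passages only through the P5 libraries, so its direction there was largely fixed by entry. P5 iMGCs differed from D150-ROs by -0.41 ± 0.18 (edgeR adjusted p 0.0492), which was not called.

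TBX5 (ENSG00000089225, chromosome 12, 114353931 to 114408442) is the most strictly dorsal of the T-box factors in the retina, and it was found in organoids above all. D70-ROs held 2.35, 1.73 and 2.19 FPKM and D150-ROs 0.39, 0.81 and 0.56 FPKM. The hiPSC group had 3 counts in all, at 0.02, 0.01 and 0.01 FPKM, and no count fell on TBX5 in the 6 iMGC libraries. D70-ROs, D150-ROs and hiPSCs did not overlap. From hiPSCs to D70-ROs the ratio of counts was 108-fold with a 95% counting interval of 36.5 to 526, and edgeR called the rise with an adjusted p of 5.35e-08. TBX5 fell by 1.94 ± 0.28 from D70-ROs to D150-ROs (edgeR adjusted p 0.000242), and by limma on log2(FPKM + 1) the difference was -0.96 and not called. D150-ROs, with 87 counts against 3 in hiPSCs, stood 27.8-fold higher by counts, with an interval of 9.21 to 137. With a floor of 3 counts over the group, TBX5 was at least 19.3-fold lower in P1 iMGCs than in D150-ROs and at least 18.6-fold lower in P5 iMGCs. TBX5 passed the filter in the 2 comparisons with D70-ROs and in no other, and the intervals and floors cover counting error only.

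TBX3 and TBX5 are neighbours on chromosome 12, 261811 bases apart with no protein-coding gene between them, and between the organoid stages TBX5 fell while the TBX3 difference was positive but not called. TBX2 has TBX4 as its neighbour on chromosome 17, 42937 bases away, and TBX4 averaged at most 0.45 FPKM in any group. The FPKM ratio of TBX2 to TBX3 within a library was 41.6, 64.8 and 42.7 in D70-ROs. It was 9.31, 11.3 and 15.4 in D150-ROs. P1 iMGCs had ratios of 4.19, 4.64 and 10.6, which overlapped those of D150-ROs, and P5 iMGCs had 1.11, 0.826 and 0.912. TBX2 thus exceeded TBX3 per length in both organoid groups and in P1 iMGCs, and the pair stood near parity in P5 iMGCs.

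VAX1 (ENSG00000148704, chromosome 10, 117128521 to 117138301), needed for the optic stalk and optic nerve head, was low in every group. The hiPSC libraries had 0.40, 0.25 and 0.18 FPKM. D70-ROs had 0.69, 3.08 and 1.00 FPKM, and D150-ROs had 1.42, 1.98 and 1.18 FPKM. P1 iMGCs held 0.62, 0.59 and 0.55 FPKM, and P5 iMGCs 1.51, 1.19 and 0.96 FPKM. The level in D70-RO replicate 2 was above every other library, and D70-ROs, D150-ROs and P5 iMGCs overlapped. The same library had the highest PAX2, an optic stalk gene, at 29.3 FPKM against 16.9 and 5.67 in the other D70-ROs, and the highest sum over 6 forebrain and optic stalk markers, 43.5 FPKM against 29.1 and 20.9. Their part in the VAX1 value was not tested. VAX1 rose by 2.19 ± 0.28 from hiPSCs to D150-ROs (edgeR adjusted p 1.10e-05). On log2(FPKM + 1) that difference was 0.98 by limma and not called. Between D70-ROs and D150-ROs the difference was 0.09 ± 0.48 (edgeR adjusted p 0.873), upper-quartile scaling gave the opposite sign, and without D70-RO replicate 2 it was 0.85. It fell by 1.03 ± 0.24 from D150-ROs to P1 iMGCs (edgeR adjusted p 0.00107), and this call was lost without D150-RO replicate 2 at -0.88 and without P1 iMGC replicate 2 at -0.99, with limma on log2(FPKM + 1) at -0.66, and with the 6 iMGC libraries as 1 group at -0.37. P5 iMGCs differed from D150-ROs by 0.11 ± 0.23 (edgeR adjusted p 0.646), with a negative sign on the FPKM scale. VAX1 did not pass the filter in the comparison of D70-ROs with hiPSCs or of P5 with P1 iMGCs, and without a filter edgeR called both, at 2.12 (adjusted p 0.00220) and 1.14 (adjusted p 0.000571). Without a filter, 41.7% and 4.29% of all genes were called in these comparisons.

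VAX2 (ENSG00000116035, chromosome 2, 70900590 to 70965373), which gives ventral retina its identity, was the more abundant VAX gene in organoids. It had 2 counts in the hiPSC group, both in replicate 2 at 0.09 FPKM. D70-ROs had 14.1, 17.4 and 19.0 FPKM, and D150-ROs had 8.80, 9.88 and 9.15 FPKM. P1 iMGCs had 1.30, 1.05 and 1.19 FPKM and P5 iMGCs 1.33, 1.17 and 1.44 FPKM. The organoid groups overlapped neither each other nor the iMGCs, whereas the passages overlapped. By counts, VAX2 was 513-fold higher in D70-ROs than in hiPSCs, with a 95% counting interval of 142 to 4243, and 246-fold higher in D150-ROs, with an interval of 67.9 to 2041; edgeR called both, with adjusted p of 2.74e-08 and 4.16e-09. It fell by 1.08 ± 0.15 from D70-ROs to D150-ROs (edgeR adjusted p 0.000193), a call lost without D70-RO replicate 3 at -0.996, with limma on log2(FPKM + 1) at -0.79 and in a test against a 2-fold change. It fell by 2.32 ± 0.18 into P1 iMGCs and by 2.13 ± 0.18 into P5 iMGCs, with edgeR adjusted p of 5.84e-09 and 1.13e-08, and the passages differed by 0.20 ± 0.27 (edgeR adjusted p 0.620). ATP6V1B1, a proton pump subunit gene that shares transcript sequence with VAX2 as described above, averaged 27.9 ± 4.56 FPKM in D70-ROs, 6.48 ± 0.09 in D150-ROs and at most 0.29 in the other groups. How the counting divided shared reads between the genes was not tested.

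FOXD1 (ENSG00000251493, chromosome 5, 73444827 to 73448527) was high in iMGCs and low in the other groups. hiPSCs read 0.57, 0.42 and 0.37 FPKM, and D70-ROs 1.94, 1.71 and 1.17 FPKM. D150-ROs had 3 counts in all, at 0, 0.08 and 0 FPKM. P1 iMGCs had 43.1, 40.7 and 42.6 FPKM and P5 iMGCs 43.1, 41.2 and 40.1 FPKM. The iMGC libraries lay above every organoid and hiPSC library, the passages overlapped, and D150-ROs lay below hiPSCs. FOXD1 rose by 1.68 ± 0.31 from hiPSCs to D70-ROs, with an edgeR adjusted p of 0.000433. With limma the rise was 0.83 and not called on log2(FPKM + 1), and 1.61 and called on log2(FPKM + 0.1). From D70-ROs to D150-ROs, 179 counts became 3, a ratio of 68.1-fold with a 95% counting interval of 22.9 to 333, and edgeR called the fall with an adjusted p of 3.92e-05. The P1 iMGCs stood 2404-fold above D150-ROs by counts, with an interval of 822 to 11662, and the P5 iMGCs 2459-fold, with an interval of 841 to 11928. Both were called, with edgeR adjusted p of 2.84e-17 and 1.09e-17, and the passages differed by 0.04 ± 0.04 (edgeR adjusted p 0.574), with a negative sign on the FPKM scale. The 3 counts in D150-ROs were too few for the comparison with hiPSCs to pass the filter, and the counts there were 21.2-fold lower with an interval of 6.92 to 106.

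The rise of FOXD1 in iMGCs went with the mesenchymal marker list. Of its 11 genes, 8 were tested and 8 called higher in P1 iMGCs than in D150-ROs, beside 20% of all genes tested. Of these, FOXC2, TWIST1, POSTN, DCN and LUM passed the filter only through the iMGC libraries, which fixed their direction in large part, and COL1A1, COL1A2 and PDGFRB were at 1 FPKM or more in every library of both groups. COL1A1, the main chain of type I collagen, averaged 2.77 ± 0.09 FPKM in D150-ROs and 2000 ± 53.5 in P1 iMGCs. LUM, a proteoglycan of corneal stroma, averaged 0.65 ± 0.14 and 42.8 ± 1.36 FPKM. PRRX1, a homeobox gene of mesenchyme, had 3 counts in P1 iMGCs and 331 counts, a mean of 1.75 ± 0.33 FPKM, in P5 iMGCs. The part of such cells in the FOXD1 and NR2F2 values was not tested. The sources do not say which libraries were prepared or sequenced together, so batch and group cannot be told apart.

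NR2F1 (ENSG00000175745, chromosome 5, 93583224 to 93594615) was second to TBX2 in D70-ROs. hiPSCs had 0.21, 0.13 and 0.41 FPKM, and D70-ROs 67.9, 71.0 and 74.5 FPKM. D150-ROs had 45.3, 48.8 and 44.2 FPKM. P1 iMGCs had 11, 10.2 and 11.9 FPKM, and P5 iMGCs 7.19, 8.70 and 8.05 FPKM. The 5 groups did not overlap. NR2F1 rose by 7.96 ± 0.19 from hiPSCs to D70-ROs and by 7.40 ± 0.17 to D150-ROs, with edgeR adjusted p of 2.24e-10 and 4.33e-12. Between organoid stages it differed by -0.56 ± 0.09 (edgeR adjusted p 0.000483), under the 2-fold limit. It fell by 1.34 ± 0.07 into P1 iMGCs and by 1.91 ± 0.07 into P5 iMGCs, with edgeR adjusted p of 6.87e-11 and 4.15e-13, and the passages differed by -0.56 ± 0.08 (edgeR adjusted p 2.28e-06), again under 2-fold.

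NR2F2 (ENSG00000185551, chromosome 15, 96325938 to 96340263) was below NR2F1 in organoids and above it in iMGCs. hiPSCs had 0.10, 0.18 and 0.16 FPKM. D70-ROs had 20.1, 22.2 and 21.3 FPKM, and D150-ROs 9.38, 10.1 and 7.19 FPKM. P1 iMGCs had 158, 144 and 150.3 FPKM, and P5 iMGCs 68.4, 72.4 and 72.1 FPKM. The 5 groups did not overlap, and 334 of 19684 genes had a higher mean FPKM in P1 iMGCs. NR2F2 rose by 6.90 ± 0.24 from hiPSCs to D70-ROs and by 5.41 ± 0.23 to D150-ROs, with edgeR adjusted p of 1.46e-09 and 4.95e-10. It fell by 1.49 ± 0.11 between D70-ROs and D150-ROs (edgeR adjusted p 4.52e-06). It then rose by 4.52 ± 0.07 into P1 iMGCs and was 3.55 ± 0.08 higher than D150-ROs in P5 iMGCs, with edgeR adjusted p of 1.57e-17 and 1.82e-16. From P1 to P5 the difference was -0.97 ± 0.04 (edgeR adjusted p 6.09e-15), just short of 2-fold. It passed 2-fold without P5 iMGC replicate 2 at -1.01 and with limma on log2(FPKM + 1) at -1.08.

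Within a library, the FPKM ratio of NR2F2 to NR2F1 was 0.296, 0.313 and 0.285 for D70-ROs, and D150-ROs had ratios of 0.207, 0.207 and 0.163. In P1 iMGCs it was 14.3, 14.1 and 12.7, and in P5 iMGCs 9.51, 8.32 and 8.95. The 4 groups did not overlap, and the order of the pair was opposite in organoids and iMGCs. The hiPSC ratios of 0.476, 1.38 and 0.390 rest on 33 counts of NR2F2 and 38 of NR2F1 over the group. The plot of ratios sets this pair beside TBX2 and TBX3.

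**Figure D2:**
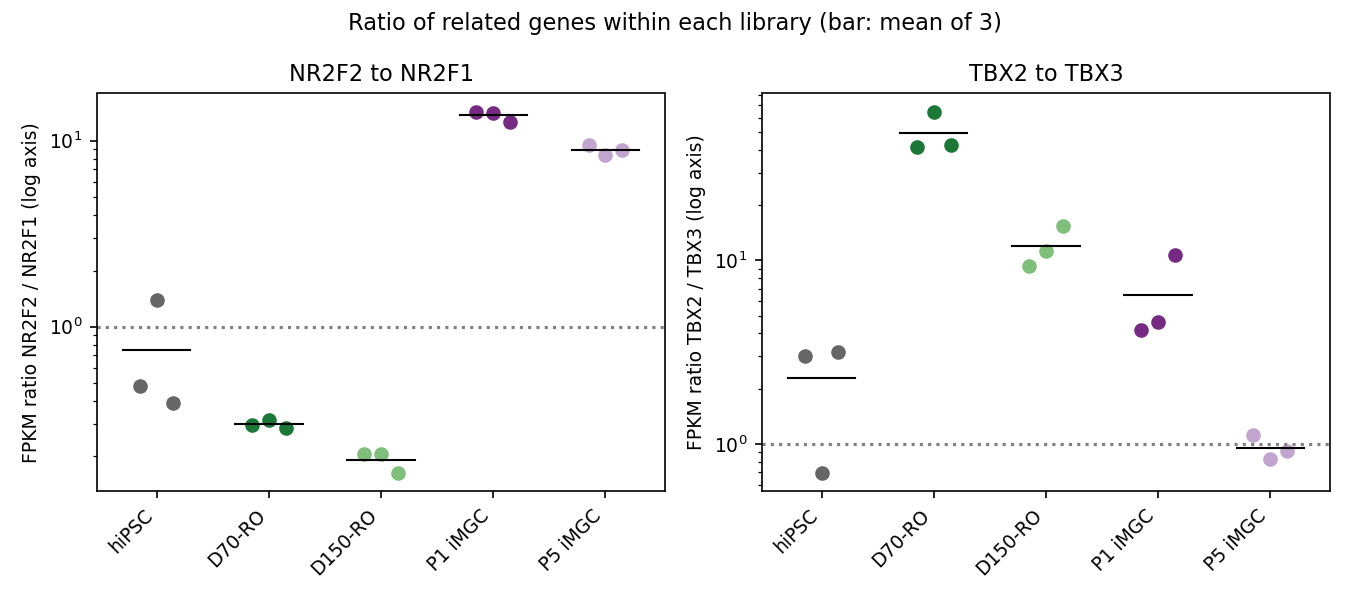
FPKM ratio of NR2F2 to NR2F1 (left) and of TBX2 to TBX3 (right) in each library on log axes, with 1 point per library, a bar at the mean of 3 and a dotted line at equal levels. NR2F2 was below NR2F1 in all 6 organoid libraries and above it in all 6 iMGC libraries, and the ratio of TBX2 to TBX3 was between 41.6 and 64.8 in D70-ROs and between 0.826 and 1.11 in P5 iMGCs.

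Across the comparisons, the first asked which factors differ between undifferentiated cells and organoid neural retina. Of the 8 members, 7 were tested between D70-ROs and hiPSCs and all 7 were called higher, where 22.5% of the 12954 genes tested were called higher 21.1% lower and 43.5% in either direction. FPKM did not overlap between the groups for any of the 8, beside 75.5% of all genes tested. In D150-ROs against hiPSCs, 6 were tested and 6 called higher, beside 29.8% of all genes tested called higher, 29% lower and 58.8% in either direction. Again the FPKM of all 8 did not overlap, as for 87.4% of all genes tested. The median log2 fold change of the tested members was 6.90 and 6.41 in these comparisons, against 0.02 and -0.02 over all genes tested. A member entered these tests only through the organoid libraries, where it reached 1 FPKM, so these counts and medians do not stand for all 8 members.

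Maturation of the organoids was compared next. All 8 members were tested between D150-ROs and D70-ROs, and TBX2, TBX5, VAX2, FOXD1 and NR2F2 were called lower. TBX5 and FOXD1 passed the filter only through the D70-RO libraries, where they were high, so their direction was largely fixed by entry. Over all 12855 genes tested, 33.3% were called, 16.6% higher and 16.7% lower. The 7 members other than VAX1 had organoid groups that did not overlap in FPKM, beside 77.2% of all genes tested. On the FPKM scale with limma and a pseudocount of 1, 2 of the 8 members were called, and 63.3% of all calls were higher against 49.8% with edgeR.

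The iMGCs were compared with the neural retina they came from. Between P1 iMGCs and D150-ROs, 7 members were tested and 7 called, 2 higher (FOXD1, NR2F2) and 5 lower (TBX2, TBX3, VAX1, VAX2, NR2F1), where 44.1% of 12896 genes were called, 20% higher and 24.1% lower. FOXD1 passed the filter only through the iMGCs, and TBX3 and VAX1 only through D150-ROs, so the count does not stand for all 8 members. All 8 members had groups that did not overlap, beside 87.9% of all genes tested. For P5 iMGCs, which share the D150-RO libraries, 5 of 7 were called, FOXD1, again tested through the iMGCs alone, and NR2F2 higher and TBX2, VAX2 and NR2F1 lower, beside 44.6% of all genes, 20.8% higher and 23.9% lower. The 7 members other than VAX1 did not overlap, beside 88.5% of all genes tested. The scale matters here: of all calls in P1 iMGCs, 45.4% were higher with edgeR and 22.9% with limma on log2(FPKM + 1), since the median gene was shifted by -0.59 on that scale and by -0.05 with TMM. For P5 iMGCs the shares were 46.5% and 22.4%, and the median shift on the FPKM scale was -0.65. The directions of the members called in both iMGC comparisons held on both scales. Between the passages, 1 of 6 members tested was called, beside 2.92% of 11366 genes, 1.94% higher and 0.977% lower. That member, TBX3, passed the filter only through the P5 libraries, so its direction was largely fixed by entry. TBX5, VAX2 and FOXD1 overlapped between the passages and the other 5 did not, beside 39.5% of all genes tested. The plot of changes by comparison shows all 41 tests of members.

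**Figure D3:**
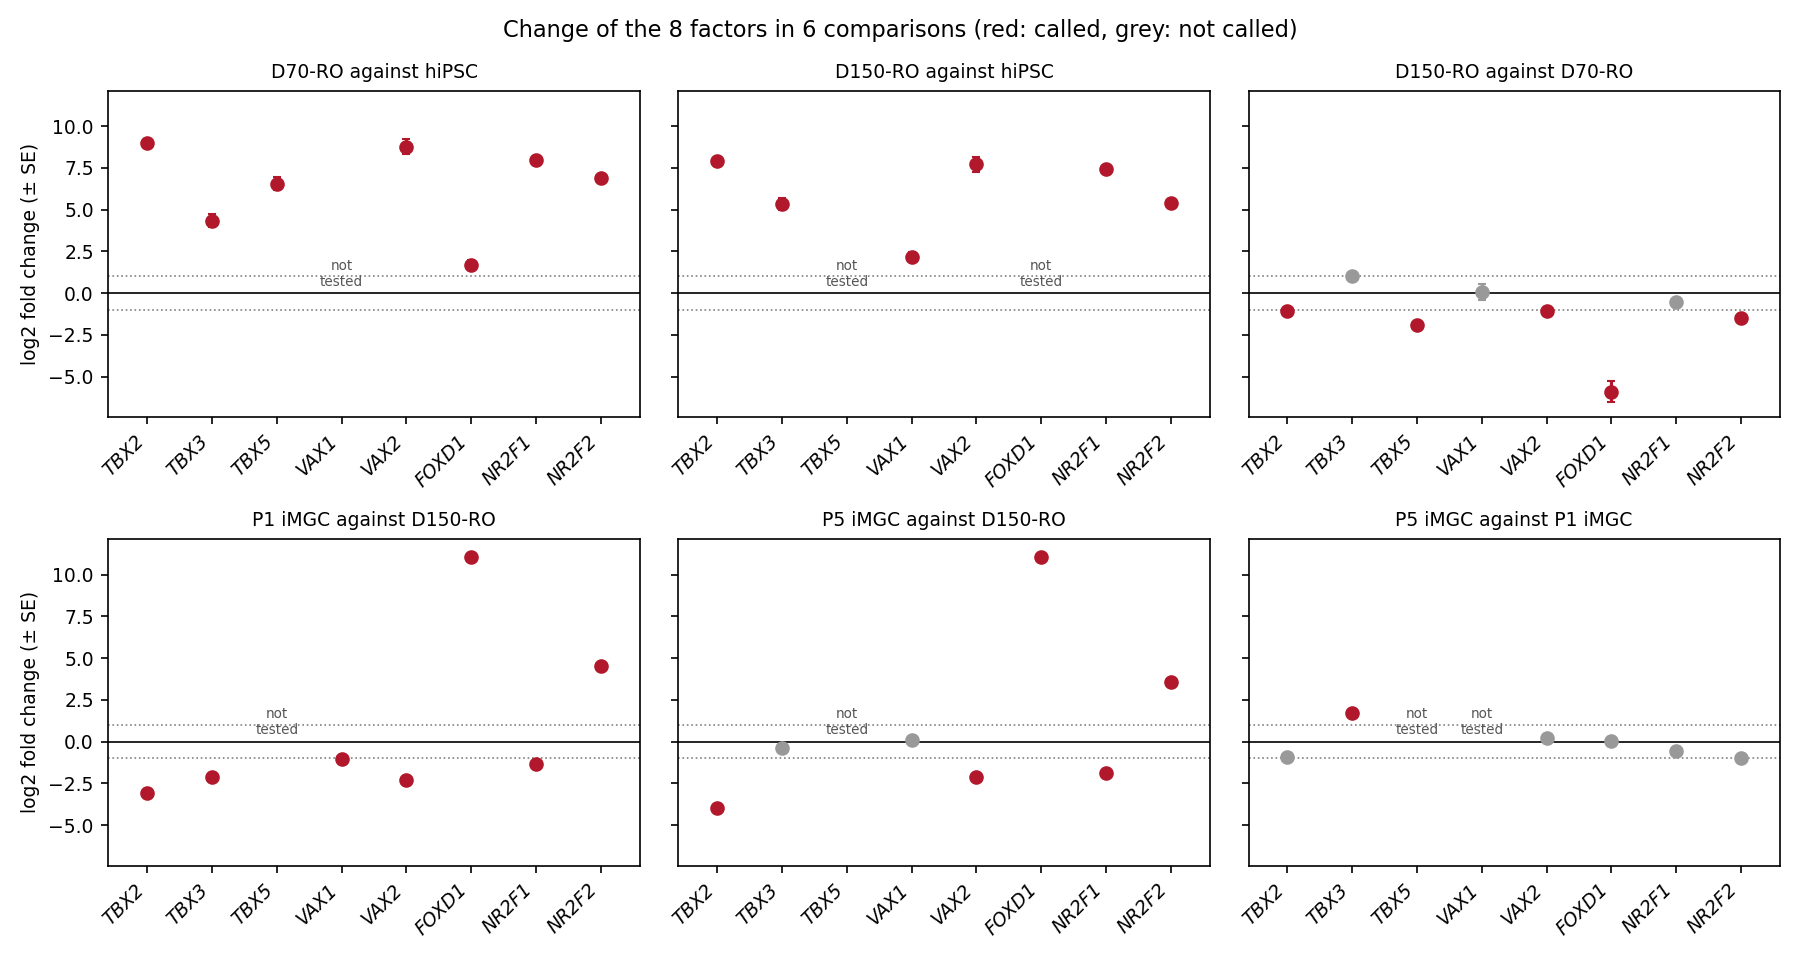
Log2 fold change of each factor in 6 comparisons from edgeR, with 1 SE as the error bar, red for called and grey for not called, and dotted lines at a 2-fold change. FOXD1 rose and TBX2 fell in both iMGC comparisons, and TBX3 was the 1 member called between passages. FOXD1 passed the filter against D150-ROs only through the iMGCs, and TBX3 between passages only through the P5 libraries. Fitted values for FOXD1 against D150-ROs, and for TBX5 and VAX2 against hiPSCs, rest on 2 or 3 counts in the lower group.

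The other genes of the retinal axes were described from a list of 26, chosen by role. In D70-ROs against hiPSCs, 24 were tested, of which 17 were called higher and 3 lower, beside 22.5% and 21.1% of all genes tested, with a median change of 2.12. Of 6 dorsal genes tested, 4 rose, among them ALDH1A1, a retinoic acid synthesis enzyme of dorsal retina, from 0.89 ± 0.24 to 56.6 ± 16.8 FPKM. Of 11 ventral genes tested, 7 rose and 2 fell, and the ventral enzyme ALDH1A3 averaged 40.2 ± 18.0 FPKM in D70-ROs. All 4 nasal genes rose, led by the homeobox gene HMX1 at 76.5 ± 13.3 FPKM, as did both temporal Eph receptors, EPHA3 and EPHA5. In all 3 D70-RO libraries, 21 of the 26 genes reached 1 FPKM, and 17 of the 26 did so in all 3 hiPSC libraries.

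Between organoid stages, 13 of 22 tested axis genes were called lower and 1, the dorsal ligand BMP2, higher, beside 16.7% and 16.6% of all genes tested, with a median change of -1.59. The dorsal ligand BMP4 fell by 3.10 ± 0.24 (edgeR adjusted p 6.12e-06) and ALDH1A1 by 5.31 ± 0.25 (edgeR adjusted p 4.59e-07). BMP4 was under 1 FPKM in every D150-RO library and passed the filter only through D70-ROs, so its direction was largely fixed by entry. ALDH1A3 fell by 2.29 ± 0.29 (edgeR adjusted p 0.000105), and PAX2 fell by 2.81 ± 0.54 (edgeR adjusted p 0.00126). The guidance receptor EPHB2, a ventral gene, differed by 0.30 ± 0.11 and the dorsal ligand EFNB2 by -0.74 ± 0.10, and neither was called. All 4 nasal genes fell and neither temporal receptor was called.

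In P1 iMGCs against D150-ROs, 12 of 23 tested axis genes were called lower and 5 higher, beside 24.1% and 20% of all genes tested, with a median change of -1.57. Those that fell included ALDH1A1, ALDH1A3, PAX2, HMX1 and EPHA3, and the hedgehog co-receptor CDON, which went from 62.2 ± 2.85 to 3.69 ± 0.13 FPKM. GDF6, a BMP ligand of dorsal eye, averaged 0.19 ± 0.15 FPKM in D150-ROs and 17.3 ± 0.83 in P1 iMGCs, a rise of 7.95 ± 0.18 (edgeR adjusted p 1.14e-15). The BMP antagonist CHRDL1, listed as ventral, went from 10.5 ± 0.76 to 74.1 ± 0.56 FPKM, a rise of 3.54 ± 0.06 (edgeR adjusted p 1.96e-17). EFNB1, the hedgehog target GLI1 and the pseudoreceptor BAMBI were the other 3 called higher. GDF6 and GLI1 passed the filter only through the iMGC libraries, so their direction was largely fixed by entry. CHRDL1, EFNB1 and BAMBI were at 1 FPKM or more in every library of both groups. BMP4, a dorsal signal, was at 0.71 ± 0.18 FPKM in D150-ROs and 0.51 ± 0.18 in P1 iMGCs and was not tested. Of 6 dorsal genes tested, 3 were called higher and 2 lower, and of 10 ventral genes tested, 2 were higher and 6 lower. In P5 iMGCs the dorsal counts were 2 higher and 2 lower, with BAMBI at 0.64 and not called, and the ventral counts again 2 and 6. The genes named above as fixed by entry again passed the filter through the same group alone.

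**Figure D4:**
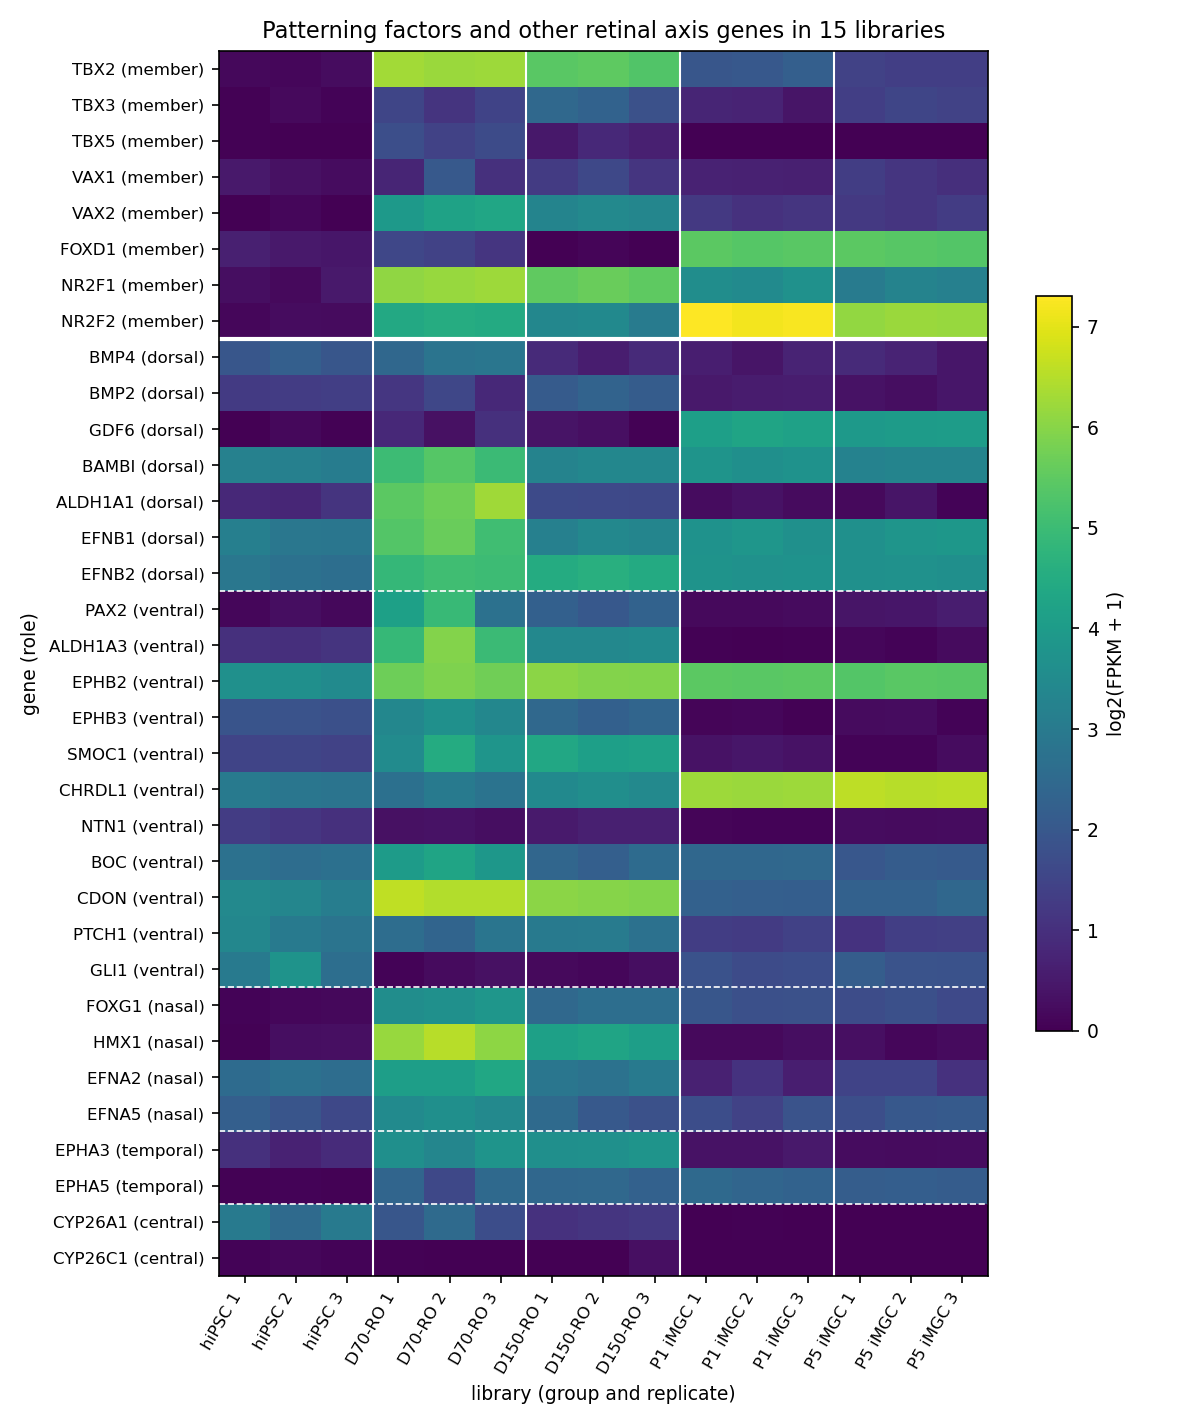
Levels of the 8 factors (top) and of 26 other retinal axis genes grouped by role, as log2(FPKM + 1), with 1 column per library. Dorsal, ventral, nasal and temporal genes were present together in D70-ROs, and in iMGCs FOXD1, NR2F2, GDF6 and CHRDL1 were high while ALDH1A3, HMX1 and EPHA3 were below 0.5 FPKM.

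Other T-box, forkhead D and NR2 genes, with the homeobox genes EMX1, EMX2 and NOTO, made up a list of 24 relatives. Between D70-ROs and hiPSCs, 9 were tested, with 1 called higher (NR2E1) and 4 lower (TBX1, TBX6, FOXD3, EMX1), beside 22.5% and 21.1% of all genes tested. NR2F6, the third COUP-TF gene, was already at 51.7 ± 2.04 FPKM in hiPSCs and 65.8 ± 14.6 in D70-ROs, unlike NR2F1 and NR2F2, and it fell by 1.93 ± 0.17 into D150-ROs (edgeR adjusted p 1.07e-05). TBX18, a T-box gene of mesenchyme and pericytes, was at most 0.04 FPKM in the 9 hiPSC and organoid libraries and averaged 6.33 ± 0.64 FPKM in P1 iMGCs and 4.17 ± 0.28 in P5 iMGCs, above TBX2 in both groups. FOXD2, which shares sequence with FOXD1, was at most 0.10 FPKM in any library, and FOXD3, a pluripotency factor, averaged 9.92 ± 0.85 FPKM in hiPSCs and at most 0.02 elsewhere.

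For each member, the genes with the most similar course over the 15 libraries were found as those with the smallest root mean square difference of log2(FPKM + 1) after centring each gene on its mean. LHX2, an eye field homeobox gene, was nearest to TBX2 with a difference of 0.32. MEIS1 and PAX6 were nearest to NR2F1, at 0.39 and 0.49. For FOXD1 they were TGM2, at 0.35, and LUM, at 0.40, and for NR2F2 ACKR3, at 0.58, and MAP1A, at 0.69. VAX2 had ABAT at 0.19 and KCNK3 at 0.28, and TBX3 had PLXNA4 at 0.23 and PAK3 at 0.26. The low range of TBX5 and VAX1 makes small differences easy to reach, at 0.11 for GRK5 and 0.23 for POLR2J3. These differences describe 15 libraries that fall into 5 groups and carry no test.

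Promoter windows from RefSeq (GRCh38.p14), running from 250 bases before to 50 bases after a start site, were at hand for 5 of the 8 members, in 8 windows. The windows of FOXD1 and of the downstream start of NR2F2 are shown because these 2 genes rose in iMGCs. Capitals mark the motifs found, a TATA box core (TATAA) 29 bases before the FOXD1 start and a CCAAT box core 52 bases before the NR2F2 start. The FOXD1 window is chr5:73448728-73449027 on the minus strand, and the NR2F2 window is chr15:96333515-96333814 on the plus strand.
FOXD1: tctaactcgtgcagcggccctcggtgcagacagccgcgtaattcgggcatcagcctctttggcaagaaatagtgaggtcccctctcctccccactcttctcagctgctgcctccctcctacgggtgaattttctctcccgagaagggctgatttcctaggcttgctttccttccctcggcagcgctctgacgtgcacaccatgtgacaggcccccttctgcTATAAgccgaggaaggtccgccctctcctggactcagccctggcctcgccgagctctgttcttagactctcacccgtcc
NR2F2: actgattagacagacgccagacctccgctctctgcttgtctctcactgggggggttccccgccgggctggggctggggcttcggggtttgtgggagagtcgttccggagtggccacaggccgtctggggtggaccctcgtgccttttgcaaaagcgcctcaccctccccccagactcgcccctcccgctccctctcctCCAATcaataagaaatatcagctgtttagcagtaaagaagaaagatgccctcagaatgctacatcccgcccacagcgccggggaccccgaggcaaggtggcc
Searched on both strands, TATAA occurred in 20.4% and CCAAT in 34.6% of 35116 windows. Both cores also occurred among the windows of NR2F1, which fell in iMGCs, so they were not particular to the genes that rose. The upstream NR2F2 window held none of the motifs searched. A homeodomain core (TAATTA), in 4.84% of all windows, was found in 1 of the TBX5 windows, 142 bases before the start. The half-sites AGGTGTGA (T-box) and AGGTCA (nuclear receptor) and the forkhead core TGTTTAC, which occur in 0.980%, 13.8% and 3.42% of all windows, were not among the letters of the 8 windows. Matches are descriptions of sequence, not of binding.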

How the data were processed

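Poly(A) RNA of 15 libraries was sequenced by the authors, who used HISAT2 for mapping, StringTie for assembly and RSEM for quantification (versions and genome build are not given in the sources used here). The deposited values are RSEM expected counts, which the authors did not normalize, and FPKM, which the authors scaled for length and depth. Between 8.21% and 10.1% of expected counts were not whole, and they were rounded. Libraries were matched to groups by title. The 6 value columns that name no passage were not used. The labels of the samples give 3 independent experiments per group, while the text on the whole series gives 2 for hiPSCs and organoids, so part of the spread may be technical. All 19684 identifiers were found in GENCODE 29, used for positions. How the kit treats strand is not stated. Reads in sequence that TBX5, VAX2, FOXD1 and NR2F1 share with genes on the opposite strand therefore cannot be assigned by strand. TBX2 and NR2F2 also overlap antisense genes but share no 50-base word with their annotated transcripts.

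The tests used edgeR 4.0.16 under R 4.3.3, comparing 2 groups at a time without covariates. Alternatives used limma 3.58.1, DESeq2 1.42.0, other scalings, no filter, all libraries in 1 fit and single libraries left out, with the genes tested kept. In simulations, edgeR recovered 99% to 100% of 200 genes changed 4-fold. Equally numbered replicates correlated between -0.106 and 0.431 in their deviations and were not treated as pairs. Genes with 3 or fewer counts in a group have 95% counting intervals or a floor of 3 counts. All members and, of the listed genes, those paired in role with a member were named. Members and lists were chosen with earlier results of these data known, and the CCAAT and TATAA motifs after the sequences were seen. Some items are not reported here.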

Additional observations from a re-analysis of the deposited data

How the results depend on the processing

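The 41 tests of members were repeated 581 times under other settings, and 546 kept direction and side of the limits, 17 lost a call, 9 gained one and 9 changed sign. The sign changes were of differences that were not called. VAX1 between D150-ROs and D70-ROs turned to -0.015 with upper-quartile scaling, and to -0.31, -0.12 and -0.077 without D70-RO replicate 1, D70-RO replicate 3 and D150-RO replicate 2, with a range of -0.31 to 0.85 over single libraries left out. VAX1 in P5 iMGCs against D150-ROs turned to -0.18 and -0.29 with limma at pseudocounts of 1 and 0.1, and to -0.062 without P5 iMGC replicate 1, with a range of -0.062 to 0.27 over single libraries left out. FOXD1 between passages turned to -0.023 and -0.024 with limma at these pseudocounts. Of 8 members, 5 were called between D150-ROs and D70-ROs, 2 with limma on log2(FPKM + 1) and 3 in a test against a 2-fold change. Between passages, the count of 1 became 2 with no filter and 2 with limma on log2(FPKM + 0.1). With 1 library left out, the counts ranged from 7 to 7 and 6 to 6 for D70-ROs and D150-ROs against hiPSCs, 5 to 6 between organoid stages, 6 to 7 and 5 to 5 for P1 and P5 iMGCs against D150-ROs, and 1 to 2 between passages, where the 2 came without P5 iMGC replicate 2. With the replicate number as a block, which does not pair these libraries, the counts were 7, 6, 5, 7, 5 and 1. Upper-quartile scaling moved the median gene to 0.12 in D70-ROs against hiPSCs, to -0.11 between organoid stages and to -0.16 in both iMGC comparisons. Depth limits TBX5, VAX1, VAX2 and FOXD1 where a group held few counts.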
